A study of Mus musculus with 20 samples.

Results

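The kelch and Asb genes encode substrate adaptors of cullin ubiquitin ligases, and their RNA was measured here in whole soleus muscle of C57BL/6J mice. The members were all protein-coding genes of the count table whose symbol starts with Klhl, Kbtbd or Asb followed by a number. There were 63 of them among 56941 gene rows, namely 36 Klhl, 9 Kbtbd and 18 Asb genes. Symbols came from the GENCODE M21 annotation, matched by Ensembl identifier. The space group held 10 libraries. Its mice went through hind-limb unloading for 14 days, ionizing radiation, and a stress hormone that the design text places in the diet. The control group held 10 libraries of sham-irradiated mice kept under similar conditions. Unloading, radiation and hormone always came as a set and cannot be told apart here, and the labels used here give no age. The design text gives 10 mice a group and the soleus of 1 limb of each, and p-values speak of the spread among these 20 samples.

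A cullin-RING ligase joins a cullin scaffold to a RING protein that recruits the ubiquitin-conjugating enzyme, and an adaptor brings in the protein to be marked. Kelch adaptors of the Klhl and Kbtbd families bind Cul3 through a BTB domain and hold substrates with their kelch repeats. Asb adaptors hold substrates with ankyrin repeats and bind Cul5 through a SOCS box together with elongins B and C. In skeletal muscle several of these adaptors stabilise or remove proteins of the sarcomere, and human mutations of KLHL40, KLHL41 and KBTBD13 cause nemaline myopathy.

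Library totals ran over 17336017 to 43424464 counts, and 16778 rows passed the filter on low counts. Levels are given as CPM, read counts scaled to a common library size with TMM factors, and a gene was called higher or lower at a Benjamini-Hochberg adjusted p under 0.05 in the edgeR quasi-likelihood test over all 16778 rows. By that rule 57.6% of all genes tested were called. Muscle fibre markers were found in every library, with a summed level of 180909 to 256933 CPM in space and 211015 to 262518 CPM in control libraries. Most of that sum was Ttn, at 158705 to 229379 CPM in space and 169060 to 211069 CPM in control libraries, which was not called. Of the 8 markers 1 was higher, Ckm at 2.21-fold. The 5 lower were Myh2 (31.2-fold), Myh7 (2.19-fold), Acta1 (2.14-fold), Mb (1.53-fold) and Tnnt1 (1.46-fold). Schwann cell and myelin markers were higher in the space group for 8 of 8 genes. Their summed level was 512.7 to 1493 CPM in space replicates 1 to 4 and 94.1 to 181 CPM in space replicates 5 to 10, against 94.6 to 192 CPM in control libraries. None of the 8 was at 0, and their part in the results below was not tested. Where they differed, calls of named genes and counts of all adaptors and cullin ligase lists are also given without space replicates 1 to 4. In whole muscle, fewer cells of a type and less RNA per cell cannot be told apart.

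Of the 63 adaptor genes, 55 passed the filter on low counts and 8 did not. Klhl33, Asb15, Klhl31 and Asb16 rose furthest among those with separate ranges, and Klhl34, the furthest of the falls, was 4.04-fold lower. In all, 12 of the 55 were called higher, or 21.8%, where 28.7% of all genes tested were called higher. The test called 23 lower, or 41.8%, where 28.9% of all genes were called lower. The median log2 fold change was -0.03 over the 55 adaptors and 0.02 over all genes tested. The members' CPM ranges did not overlap between the groups for 4 higher genes, beside a share of 6.48% of all genes, and for 9 lower genes, beside 11.0% of all genes. A change of at least 2-fold was called for 3 adaptors, where 7.19% of all genes reached it. The split depended on the scaling. With library size alone 18 adaptors were higher and 19 lower, and with upper-quartile factors 16 were higher and 20 lower. Over all genes, 4813 were higher and 4850 lower with TMM factors, against 5946 and 3756 with library size alone. Without space replicates 1 to 4, 51.3% of all genes were called; 13 adaptors were higher, where 25.2% of all genes were, and 18 were lower, where 26.1% were.

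**Figure D1:**
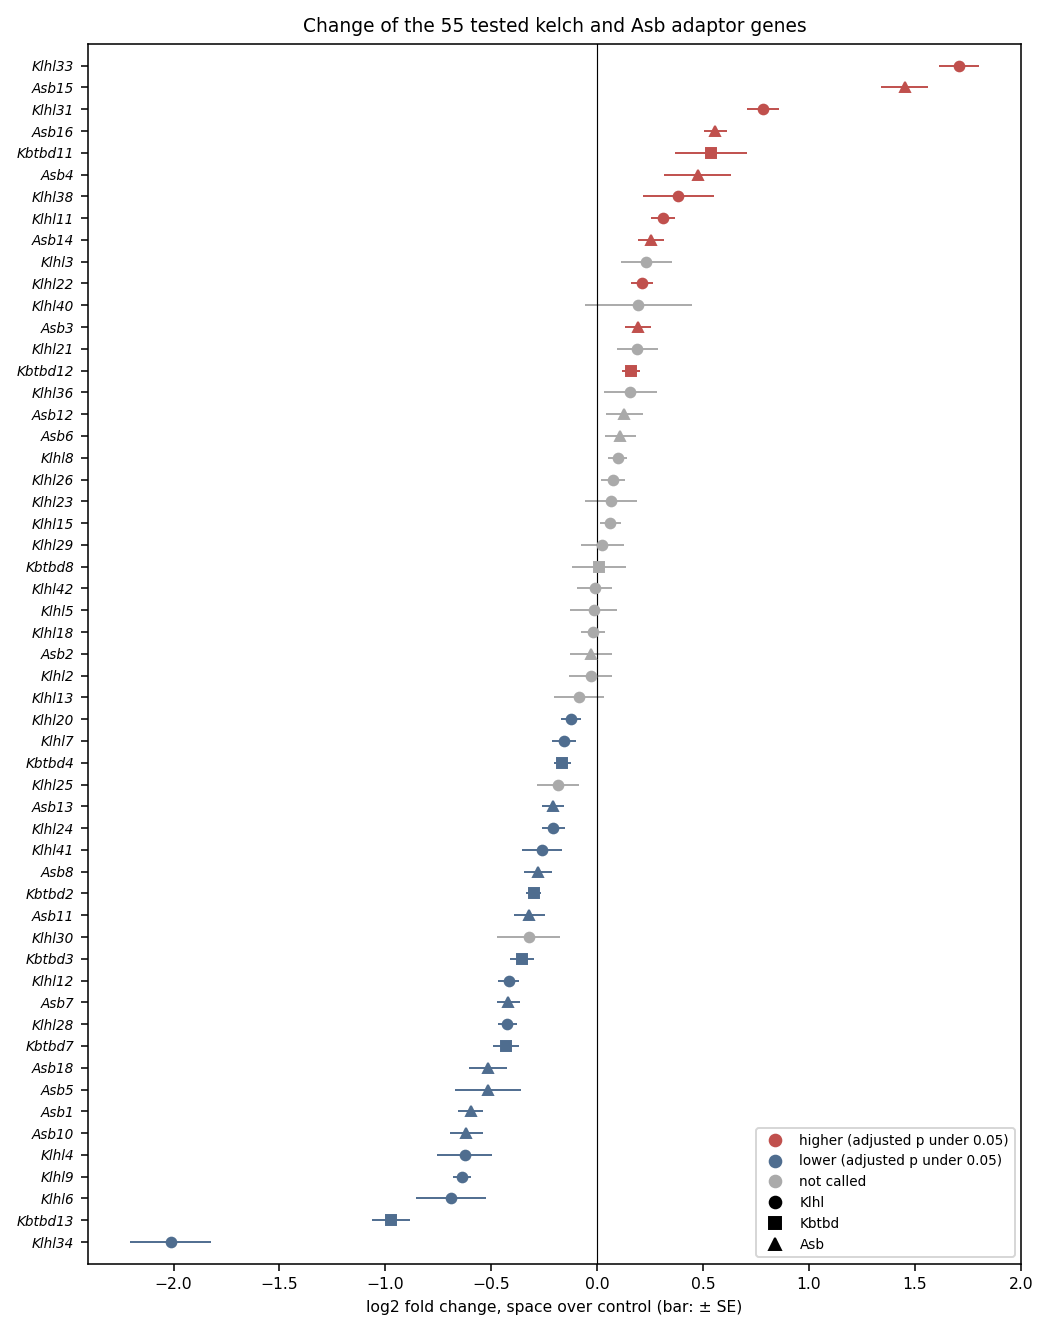
Log2 fold change of space over control for each of the 55 tested adaptor genes, with its SE as a bar; colour marks the edgeR call and marker shape the family. Klhl33 at 1.71 and Asb15 at 1.45 stand apart at the top and Klhl34 at -2.01 at the bottom, while 20 genes were not called.

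The families are given in turn, and differences between them were not tested. Counts in this paragraph use all libraries and would differ without space replicates 1 to 4. In that fit Asb5, Asb13, Kbtbd4, Kbtbd11, Klhl7, Klhl20, Klhl38 and Klhl41 lost their calls. Asb12, Klhl21 and Klhl23 were then called higher and Klhl5 lower. Over all genes tested 28.7% were higher and 28.9% lower. Among the 31 tested Klhl genes 5 were higher (16.1%) and 10 lower (32.3%), with a median log2 fold change of -0.02. Among the 8 tested Kbtbd genes 2 were higher (25.0%) and 5 lower (62.5%), with a median of -0.23. Among the 16 tested Asb genes 5 were higher and 8 lower, with a median of -0.12. A list of 20 adaptors known for expression in striated muscle held 8 higher genes, 8 lower genes and 4 that were not called, and the median size of its log2 fold changes was 0.43. Over the other 35 tested members 4 were higher and 15 lower, and that median was 0.19, while over all genes tested it was 0.27. The muscle list was chosen with earlier results of these data known and holds the largest changes, Klhl34, Klhl33 and Asb15. The contrast between these medians was not tested.

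The rises were led by a kelch gene, Klhl33, and an Asb gene, Asb15. Klhl33 had 160.0 to 274 CPM in space libraries, with a median of 207 CPM, against 57.4 to 74.4 CPM in control libraries, with a median of 65.7 CPM. It was 3.27-fold higher (log2 fold change 1.71 ± 0.09 SE, n = 10 each, edgeR adjusted p = 8.1e-13). Every space library lay above every control library, and the gap between the ranges exceeded the whole spread of the controls. Asb15 encodes an ankyrin repeat adaptor that is abundant in striated muscle. Its level was 142 to 252 CPM in space libraries (median 196 CPM), against 57.9 to 99.3 CPM in control libraries (median 71.2 CPM). It stood 2.73-fold higher, with a log2 fold change of 1.45 ± 0.11 SE (edgeR adjusted p = 3.89e-10) and again with separate ranges.

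Klhl31, whose mouse protein takes part in the turnover of the actin crosslinker filamin C, had 809.6 to 1217 CPM in space libraries (median 1094 CPM) and 494 to 699 CPM in control libraries (median 639 CPM). It was 1.72-fold higher, a log2 fold change of 0.78 ± 0.07 SE (edgeR adjusted p = 1.37e-09). No space library reached down to a control library. Asb16 had 89.3 to 126 CPM in space libraries (median 112 CPM), against 69.3 to 83.1 CPM in control libraries (median 73.2 CPM), and was 1.47-fold higher (edgeR adjusted p = 2.74e-09). Its ranges were separate as well, by a gap of a few CPM. Without space replicates 1 to 4, the log2 fold changes of Klhl33, Asb15, Klhl31 and Asb16 were 1.86, 1.51, 0.88 and 0.61.

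The other 4 rises in the muscle list were smaller, and their ranges overlapped. Asb14 had 70.1 to 99.9 CPM in space libraries (median 81.0 CPM) and 62.3 to 75.8 CPM in control libraries (median 69.1 CPM), a 1.19-fold rise (edgeR adjusted p = 0.000699). Kbtbd12 had 34.6 to 43.03 CPM in space libraries (median 38.5 CPM), against 30.02 to 36.7 CPM in control libraries (median 35.1 CPM), and was 1.12-fold higher (edgeR adjusted p = 0.00324). For both genes all 10 space libraries lay above the control mean. Asb4 spread more widely in space libraries, from 7.70 to 20.9 CPM (median 12.7 CPM), than in control libraries, from 6.08 to 11.5 CPM (median 10.0 CPM), and rose 1.39-fold (edgeR adjusted p = 0.0099). Klhl38 had 35.6 to 91.4 CPM in space libraries (median 83.9 CPM) and 47.7 to 72.8 CPM in control libraries (median 56.1 CPM). Its 1.30-fold rise (edgeR adjusted p = 0.0393) was lost when any of 13 libraries was left out, with adjusted p up to 0.0693, and without space replicates 1 to 4 (adjusted p = 0.2). Space replicates 7 and 10 held the 2 lowest values of Klhl38, 43.8 and 35.6 CPM. On the opposite strand, Gm15943 shares 1446 exon bases with Klhl38 and stood at 1.33 CPM in space and 0.324 CPM in control libraries; without a stated strand setting, reads of the pair cannot be told apart.

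The falls were led by Klhl34. It had 9.46 to 33.9 CPM in space libraries (median 17.1 CPM), against 64.3 to 90.2 CPM in control libraries (median 75.1 CPM). This was 4.04-fold lower in the space group (log2 fold change -2.01 ± 0.19 SE, n = 10 each, edgeR adjusted p = 3.53e-08). No space library came near the controls, and without space replicates 1 to 4 the log2 fold change was -1.77. Kbtbd13, whose human counterpart is mutated in a nemaline myopathy with slow relaxation, had 8.21 to 12.7 CPM in space libraries (median 10.5 CPM) and 17.8 to 28.2 CPM in control libraries (median 19.2 CPM). It fell 1.97-fold (log2 fold change -0.97 ± 0.09 SE, edgeR adjusted p = 1.13e-09) without overlap of the ranges.

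**Figure D2:**
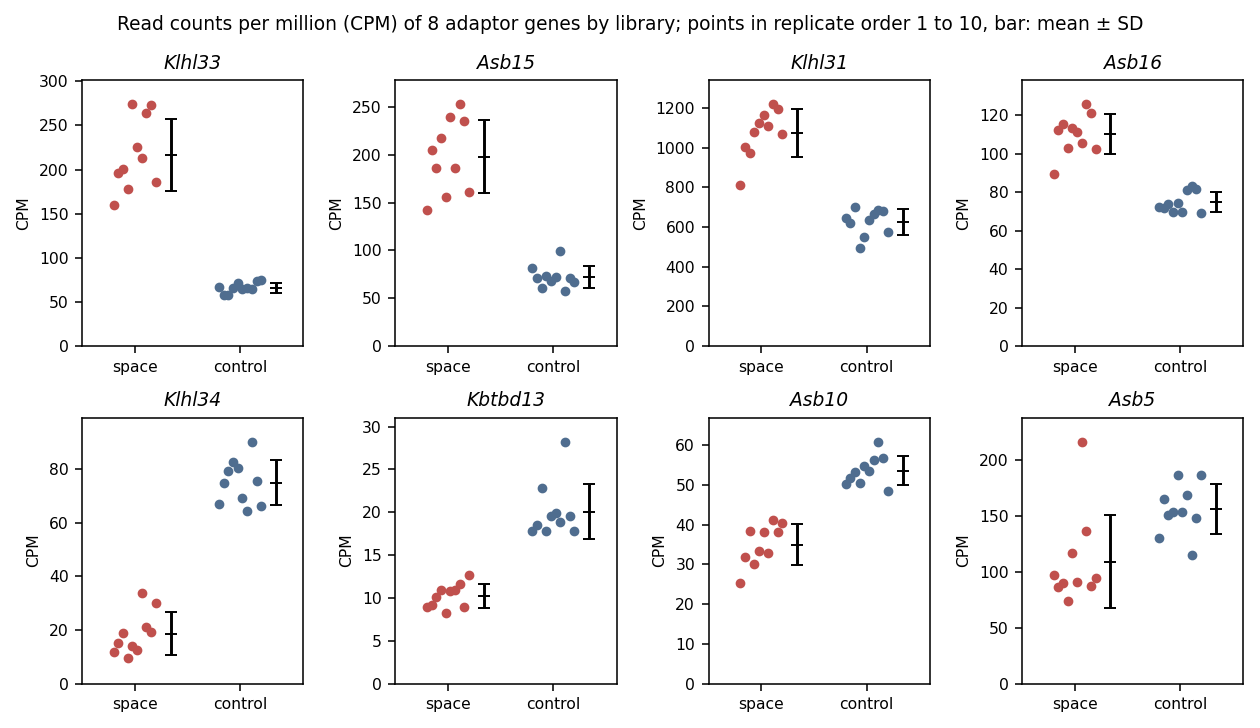
CPM of 8 adaptor genes in each of the 10 space libraries (left in each panel) and 10 control libraries (right), with the mean and SD as a bar. The groups are separate for Klhl33, Asb15, Klhl31 and Asb16 above and for Klhl34, Kbtbd13 and Asb10 below. Asb5 overlaps, with space replicates 5, 7 and 8 at 117, 217 and 137 CPM above the lowest control library at 115 CPM.

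Among Asb genes of muscle, Asb10, Asb18 and Asb8 fell in every space library relative to the control mean. Asb10 had 25.2 to 41.2 CPM in space libraries (median 35.7 CPM) and 48.4 to 60.8 CPM in control libraries (median 53.3 CPM), a 1.53-fold fall with separate ranges (edgeR adjusted p = 7.07e-08). Asb18 had 20.5 to 33.6 CPM in space libraries (median 30.3 CPM), against 30.7 to 51.5 CPM in control libraries (median 42.0 CPM), and was 1.43-fold lower (edgeR adjusted p = 1.02e-05). Its ranges touched at 1 or more libraries on each side. Asb11 had 67.4 to 107 CPM in space libraries (median 82.6 CPM) and 90.4 to 129 CPM in control libraries (median 102 CPM), a 1.248-fold fall (edgeR adjusted p = 0.000421). Asb8 had 39.3 to 56.8 CPM in space libraries (median 46.6 CPM), against 54.0 to 63.8 CPM in control libraries (median 57.8 CPM), and was 1.21-fold lower (edgeR adjusted p = 0.000444). Asb8 and Asb11 overlapped between the groups and kept their calls without space replicates 1 to 4.

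Asb5, a muscle-enriched ankyrin repeat adaptor, had 74.3 to 217 CPM in space libraries (median 92.9 CPM) and 115 to 187 CPM in control libraries (median 154 CPM). It was 1.43-fold lower (log2 fold change -0.52 ± 0.16 SE, edgeR adjusted p = 0.00997) with 9 of 10 space libraries below the control mean. The exception was space replicate 7, the highest of all 20 libraries, and without it the log2 fold change was -0.68. Without space replicates 1 to 4, which stood at 74.3 to 97.2 CPM, the fall did not pass the test (log2 fold change -0.32, edgeR adjusted p = 0.153).

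Klhl40 stabilises the thin filament proteins nebulin and leiomodin 3, and its relative Klhl41 stabilises nebulin. Klhl41, the most abundant adaptor per length of exon, had 602 to 1033 CPM in space libraries (median 867 CPM) and 926 to 1307 CPM in control libraries (median 998 CPM). The 1.197-fold fall passed the test (edgeR adjusted p = 0.0126) but not without space replicates 1 to 4 (adjusted p = 0.0719). Klhl40 had 70.0 to 345 CPM in space libraries (median 121 CPM), against 93.9 to 184 CPM in control libraries (median 111 CPM), and was not called (log2 fold change 0.19 ± 0.25 SE, edgeR adjusted p = 0.543). Without space replicate 7, at 345 CPM, its log2 fold change was -0.07. Space replicates 1 to 4 held 70.0 to 96.9 CPM of Klhl40 and the other 6 space libraries 80.9 to 345 CPM. Nebulin, Neb, averaged 21266 ± 2065 CPM in space and 22064 ± 1033 CPM in control libraries (SD, n = 10 each) and was not called (edgeR adjusted p = 0.472). Leiomodin 3, Lmod3, was 1.31-fold lower at 117 ± 28.0 CPM in space against 153 ± 17.5 CPM in control libraries (edgeR adjusted p = 0.00679; without space replicates 1 to 4, adjusted p = 0.0847).

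Among the other adaptors of the muscle list, Asb2, Klhl30 and Asb12 were not called. Asb2, an adaptor that directs cytoskeletal proteins to degradation, had 212 to 452 CPM in space libraries (median 359 CPM) and 314 to 399 CPM in control libraries (median 359 CPM; edgeR adjusted p = 0.79). The sign of its log2 fold change, -0.030, turned with library size alone, with upper-quartile factors and without space replicate 1, the lowest library. Klhl30 had 23.2 to 66.4 CPM in space libraries (median 31.5 CPM) and 36.8 to 50.5 CPM in control libraries (median 45.3 CPM), with a log2 fold change of -0.32 ± 0.15 SE (edgeR adjusted p = 0.0768). Space replicate 7 was again the highest, and without it Klhl30 was called lower (log2 fold change -0.47, edgeR adjusted p = 0.000605), as it was without space replicate 5. Asb12 had 18.6 to 30.4 CPM in space libraries (median 21.2 CPM) and 18.5 to 22.9 CPM in control libraries (median 20.6 CPM; edgeR adjusted p = 0.18), and was called higher without space replicates 1 to 4 (log2 fold change 0.27, edgeR adjusted p = 0.005).

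**Figure D3:**
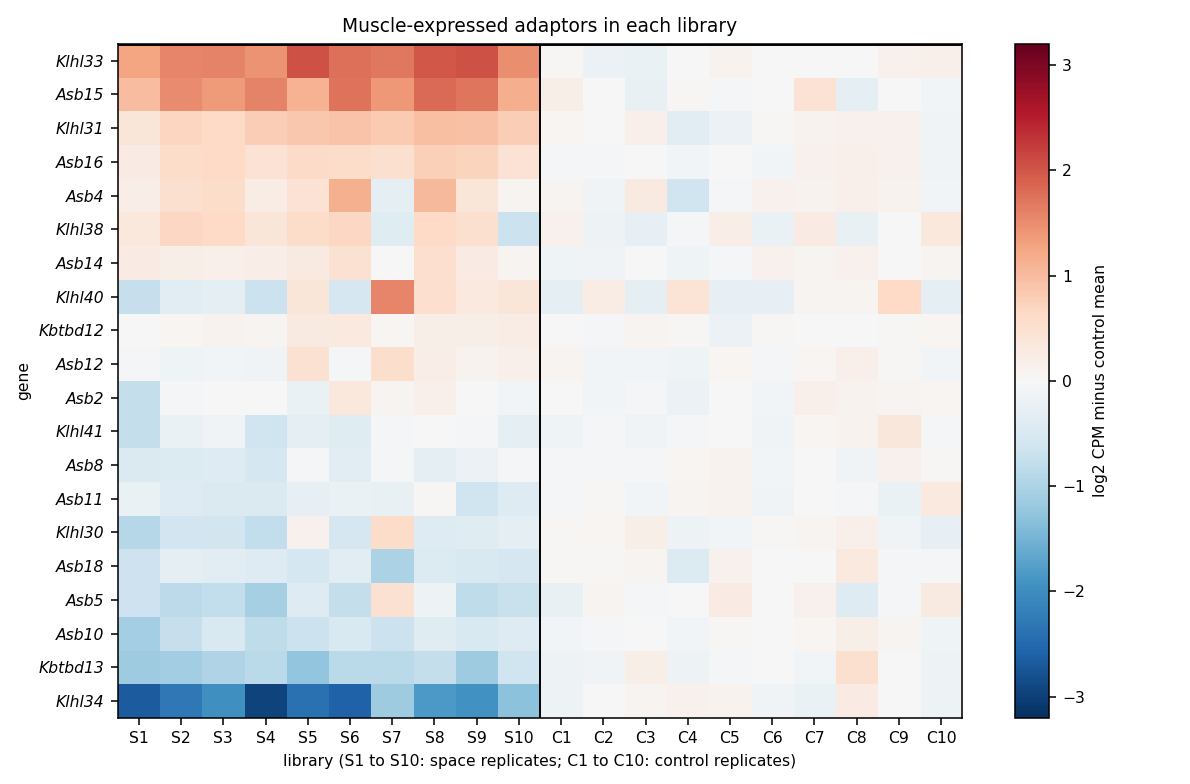
Log2 CPM minus the control mean for the 20 adaptors of the muscle list (rows) in 10 space (S) and 10 control (C) libraries (columns), red above and blue below the control mean. The top 4 rows are red in all space columns, and the bottom 2 rows, Asb10, Asb18 and Asb8 are blue in all of them. Space replicate 7 (S7) is red for Klhl40, Asb5 and Klhl30, is blue for Asb4 and Klhl38, and holds the lowest value of Asb18.

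The extremes of the 20 muscle-list adaptors were spread unevenly over the space libraries. Space replicate 1 held the lowest space value of 10 of them, among them Asb2, Asb15, Klhl31, Klhl33, Klhl40 and Klhl41, and the highest of 0. That library had the largest TMM factor of all 20, 1.16, and the part of the scaling in its low values was not tested. Space replicate 8 held the highest space value of 7, among them Asb15, Asb16, Klhl31 and Klhl41. Space replicate 7 held extremes on both sides, with the highest space values of Klhl40, Asb5, Klhl30, Klhl34 and Asb12, and the lowest of Asb4, Asb14 and Asb18. Klhl34 stood at 33.9 CPM in space replicate 7, against 9.46 CPM in space replicate 4, the lowest. The calls of Klhl34, Asb4, Asb5, Asb14 and Asb18 held without space replicate 7.

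Promoters are shown for 6 muscle-list adaptors, picked after the motif search to show the MEF2 box on both sides. Klhl33, Asb15 and Klhl34 had the largest changes of all members, and Asb16, which was higher, and Asb5 and Klhl41, which were lower, hold the motif. Each window runs from 250 bases before to 50 bases after an annotated start in RefSeq (build GRCm38.p6), 5′ to 3′ on the strand of the gene. For Klhl33 and Asb5 the start shown is the one with the MEF2 box, which their other windows lack; another Asb5 window holds a CArG box. Capitals mark matches to the MEF2 box and to the forkhead motif GTAAACA, on either strand. The windows are chr14:50897434-50897733 on the minus strand for Klhl33 (the upstream of 2 starts), chr6:24527894-24528193 on the plus strand for Asb15, chr11:102268501-102268800 on the plus strand for Asb16, chrX:157818185-157818484 on the plus strand for Klhl34, chr8:54571189-54571488 on the plus strand for Asb5 (the middle of 3 starts) and chr2:69669870-69670169 on the plus strand for Klhl41.
Klhl33: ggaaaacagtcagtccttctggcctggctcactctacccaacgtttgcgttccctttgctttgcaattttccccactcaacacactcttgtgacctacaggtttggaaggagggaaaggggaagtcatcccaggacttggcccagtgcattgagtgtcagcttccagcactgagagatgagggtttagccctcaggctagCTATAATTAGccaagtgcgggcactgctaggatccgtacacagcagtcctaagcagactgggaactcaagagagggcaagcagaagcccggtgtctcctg
Asb15: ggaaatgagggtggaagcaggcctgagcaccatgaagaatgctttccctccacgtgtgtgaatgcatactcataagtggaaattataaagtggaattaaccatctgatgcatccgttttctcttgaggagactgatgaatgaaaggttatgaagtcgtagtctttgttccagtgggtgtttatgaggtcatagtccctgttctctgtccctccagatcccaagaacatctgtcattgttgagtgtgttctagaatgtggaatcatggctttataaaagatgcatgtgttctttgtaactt
Asb16: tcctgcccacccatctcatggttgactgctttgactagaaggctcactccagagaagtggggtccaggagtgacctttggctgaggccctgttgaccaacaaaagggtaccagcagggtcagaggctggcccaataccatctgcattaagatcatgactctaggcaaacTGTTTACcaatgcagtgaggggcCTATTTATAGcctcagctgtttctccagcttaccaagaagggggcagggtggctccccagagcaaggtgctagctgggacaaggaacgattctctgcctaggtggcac
Klhl34: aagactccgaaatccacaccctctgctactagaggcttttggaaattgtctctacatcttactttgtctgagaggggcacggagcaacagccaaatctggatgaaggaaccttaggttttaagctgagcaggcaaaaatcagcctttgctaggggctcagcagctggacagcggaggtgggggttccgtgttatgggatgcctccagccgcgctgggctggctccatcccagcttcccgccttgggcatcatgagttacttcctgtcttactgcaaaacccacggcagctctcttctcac
Asb5: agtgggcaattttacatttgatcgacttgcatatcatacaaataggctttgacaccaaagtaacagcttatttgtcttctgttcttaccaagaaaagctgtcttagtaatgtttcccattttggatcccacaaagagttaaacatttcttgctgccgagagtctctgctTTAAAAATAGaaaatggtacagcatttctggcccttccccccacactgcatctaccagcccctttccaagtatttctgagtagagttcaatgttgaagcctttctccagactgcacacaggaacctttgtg
Klhl41: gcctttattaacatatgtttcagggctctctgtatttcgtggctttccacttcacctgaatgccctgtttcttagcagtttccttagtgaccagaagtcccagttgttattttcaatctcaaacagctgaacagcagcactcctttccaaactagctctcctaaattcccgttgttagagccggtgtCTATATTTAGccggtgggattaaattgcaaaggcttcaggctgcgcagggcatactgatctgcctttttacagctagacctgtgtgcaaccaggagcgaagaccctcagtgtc
RefSeq promoter windows were matched by symbol for 54 of the 63 adaptors. A MEF2 box, the binding motif of the myocyte enhancer factors, stood in a window of 8 of these 54 genes (14.8%), and in a window of 3.70% of all 27025 genes with one. The 8 were Klhl33, Asb14, Asb16 and Kbtbd12, which were higher in space libraries, Klhl41, Asb5 and Asb18, which were lower, and Asb12, which was not called. All 8 were in the muscle list. In these windows Asb15 and Klhl34 held no such match. The forkhead motif GTAAACA was found in Asb16 and Asb18, 3.70% of the members with a window and 4.05% of all genes, and the CArG box of serum response factor in Asb2 and Asb5, 3.70% against 1.81% of all genes. The full palindromic glucocorticoid response element was in no member's window and in 0.0518% of all genes. The E-box CANNTG of myogenic factors was in 66.7% of members and 75.0% of all genes, and the MCAT motif CATTCC in 14.8% of members and 16.6% of all genes. Both strands were searched, motifs were allowed to overlap, and a match is a description of the letters.

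Kelch adaptors outside the muscle list are described next. Klhl9, an adaptor that acts with Klhl13 on Aurora B in dividing cells and whose human counterpart is mutated in a distal myopathy, had 68.8 to 85.5 CPM in space libraries (median 75.1 CPM), against 108 to 131 CPM in control libraries (median 118 CPM). It was 1.56-fold lower with separate ranges (log2 fold change -0.64 ± 0.04 SE, edgeR adjusted p = 1.4e-11). On the opposite strand, Gm26566 shares 661 exon bases with Klhl9 and was not found among the rows counted, so its reads could not be looked at. Klhl13, the paralog of Klhl9, had 7.11 to 12.2 CPM in space and 7.93 to 13.1 CPM in control libraries and was not called (edgeR adjusted p = 0.523). Their transcripts were 81.8% identical over 1829 aligned bases. Klhl12, an adaptor for the coat protein Sec31a of export vesicles, fell 1.34-fold (edgeR adjusted p = 8.42e-08), and Klhl28 fell 1.34-fold (edgeR adjusted p = 5.21e-08), both with separate ranges. Sec31a itself was not called (edgeR adjusted p = 0.202).

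Further kelch genes changed less, or at levels of a few CPM. Klhl24, known in human skin for acting on keratin 14, had 344 to 448 CPM in space libraries (median 400.2 CPM) and 405 to 571 CPM in control libraries (median 453 CPM), a 1.154-fold fall (edgeR adjusted p = 0.0024). Klhl7 and Klhl20 were 1.11-fold and 1.09-fold lower, and the call of Klhl20 (edgeR adjusted p = 0.045) was lost when any of 12 libraries was left out. Neither Klhl7 (adjusted p = 0.297) nor Klhl20 (adjusted p = 0.142) was called without space replicates 1 to 4. Klhl6, known from germinal centre B cells, had 0.995 to 2.44 CPM in space libraries (median 1.31 CPM) and 1.499 to 2.97 CPM in control libraries (median 2.38 CPM), a 1.61-fold fall (edgeR adjusted p = 0.000967). Klhl4 had 1.22 to 2.07 CPM in space libraries (median 1.39 CPM) and 1.70 to 3.59 CPM in control libraries (median 2.11 CPM) and was 1.54-fold lower (edgeR adjusted p = 0.000426). These values rest on 29 to 152 counts a library for Klhl4 and 25 to 126 for Klhl6, and both genes overlapped between the groups.

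Outside the muscle list, 2 Klhl genes were called higher with all libraries, where 28.7% of all genes tested were. Klhl11 had 6.39 to 8.54 CPM in space libraries (median 6.87 CPM) and 4.87 to 6.57 CPM in control libraries (median 5.76 CPM), a 1.24-fold rise (edgeR adjusted p = 0.000252). Klhl22, which targets the mTORC1 inhibitor Depdc5, was 1.16-fold higher (edgeR adjusted p = 0.00189), and Depdc5 was not called (edgeR adjusted p = 0.336). Without space replicates 1 to 4, Klhl21 and Klhl23 were called higher and Klhl5 lower, with log2 fold changes of 0.32, 0.24 and -0.23. With all libraries Klhl21, an adaptor of dividing cells, had a log2 fold change of 0.19 ± 0.10 SE (edgeR adjusted p = 0.0718). Klhl2, Klhl3, Klhl8, Klhl15, Klhl18, Klhl25, Klhl26, Klhl29, Klhl36 and Klhl42 were not called in either comparison, with log2 fold changes between -0.19 for Klhl25 and 0.23 for Klhl3. Klhl2 and Klhl3 are adaptors of WNK kinases. Their substrate gene Wnk1 was 1.28-fold lower, at 551 ± 45.0 CPM in space and 708 ± 29.5 CPM in control libraries (SD, n = 10 each).

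Outside the muscle list, 7 Kbtbd and Asb genes were lower and 2 higher, while Kbtbd8 and Asb6 were not called. Beside these counts stand 28.9% lower and 28.7% higher over all genes tested. Kbtbd4, Asb13 and Kbtbd11 lost their calls without space replicates 1 to 4, where 26.1% of all genes were lower and 25.2% higher. Kbtbd2, which limits the level of the PI3-kinase regulatory subunit p85α, had 28.05 to 33.96 CPM in space libraries and 35 to 42.4 CPM in control libraries, a 1.23-fold fall with separate ranges (edgeR adjusted p = 6.36e-07). The gene of p85α, Pik3r1, moved the other way, with 174 to 421 CPM in space libraries (median 283 CPM) and 93.2 to 137 CPM in control libraries (median 112 CPM). Kbtbd7 was 1.35-fold lower and Kbtbd3 1.28-fold lower, both in 10 of 10 space libraries relative to the control mean. Kbtbd4 was 1.12-fold lower (edgeR adjusted p = 0.00422; without space replicates 1 to 4, adjusted p = 0.0739). It shares 1657 exon bases with Ptpmt1 on the other strand, which averaged 12.2 CPM in space and 12.4 CPM in control libraries. It also shares 88 with Ndufs3 on that strand, which averaged 73.6 CPM in space and 99.5 CPM in control libraries. The value of Kbtbd4 is therefore uncertain. Kbtbd11 had 1.47 to 4.69 CPM in space libraries (median 2.55 CPM) and 1.41 to 2.48 CPM in control libraries (median 1.93 CPM) and was 1.45-fold higher (edgeR adjusted p = 0.00717). Space replicates 1 to 4 held 2.70 to 4.69 CPM of it and the other 6 space libraries 1.47 to 2.83 CPM, and without those 4 it was not called (adjusted p = 0.252). Kbtbd8 was not called (edgeR adjusted p = 0.958).

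Asb1 had 12.9 to 15.4 CPM in space libraries (median 13.4 CPM) and 17.6 to 24.0 CPM in control libraries (median 19.9 CPM), a 1.51-fold fall with separate ranges (edgeR adjusted p = 5.53e-09). Asb7, an adaptor that acts at the mitotic spindle, was 1.34-fold lower with separate ranges (edgeR adjusted p = 8.85e-07). Asb13 fell 1.154-fold (edgeR adjusted p = 0.00301; without space replicates 1 to 4, adjusted p = 0.0862). Asb3, which targets the TNF receptor Tnfrsf1b, was 1.14-fold higher (edgeR adjusted p = 0.0138), and Asb6 was not called (edgeR adjusted p = 0.236). The 8 members that did not pass the filter were Klhl1, Klhl10, Klhl14, Klhl32, Klhl35, Kbtbd6, Asb9 and Asb17. Klhl1, a gene of neurons, had 0 counts in all 20 libraries, which allows 3 counts or at most 0.0708 to 0.176 CPM in a library, for counting error only. Klhl10, known from spermatids, had at most 23 counts in a library and the other 6 at most 13.

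Levels were compared between genes only as CPM per kb of exon, with exon lengths from GENCODE M21. Klhl41 led both groups, at 340.0 ± 56.9 CPM per kb in space and 407 ± 44.4 CPM per kb in control libraries (SD, n = 10 each). In space libraries Klhl31 followed at 165 ± 18.7 CPM per kb and then Asb2 at 99.6 ± 17.7 CPM per kb. In control libraries Asb2 at 102 ± 7.68 CPM per kb and Klhl31 at 96.1 ± 10.2 CPM per kb came next and lay within their spread of each other. Klhl33 was rank 9 of 63 in space and rank 21 in control libraries, Asb15 rank 6 and rank 16, and Klhl34 rank 20 and rank 7. The order below the top ranks is close, and neighbours there often lie within an SD of each other. Exon length counts every annotated isoform, so a gene with long minor isoforms is placed too low.

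**Figure D4:**
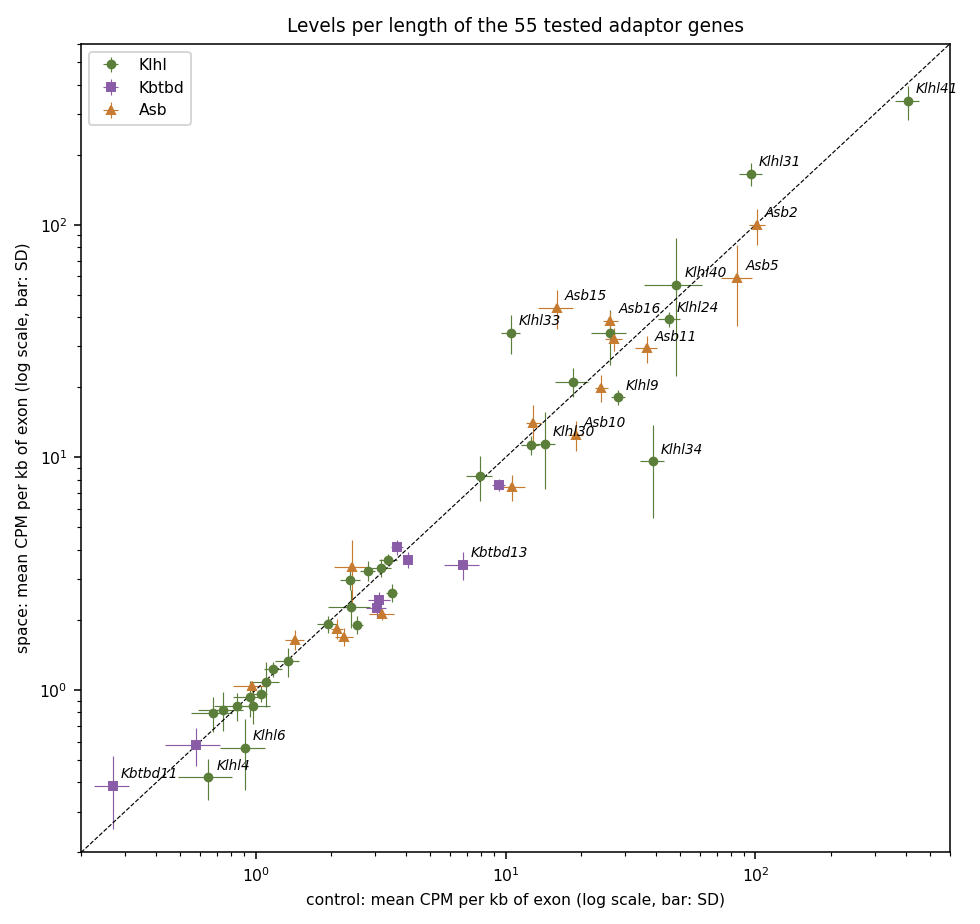
Mean CPM per kb of exon of the 55 tested adaptors in space (vertical) against control libraries (horizontal), both on log scales, with SD bars; the dashed line marks equal levels. Klhl33, Asb15 and Klhl31 lie above the line and Klhl34 and Kbtbd13 below it.

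Levels were also summed over each family. Asb genes together had 296 to 436 CPM per kb in space libraries (median 357) and 351 to 401 CPM per kb in control libraries (median 364). Within that sum the share of Asb15 was 9.58 to 14.2% in space and 3.55 to 5.51% in control libraries, and that of Asb5 11.7 to 27.2% in space and 17.2 to 25.7% in control libraries. Klhl genes together had 583 to 931 CPM per kb in space libraries (median 773) and 731 to 928 CPM per kb in control libraries (median 769). Klhl31 made up 18.4 to 25.6% of that sum in space and 9.88 to 14.3% in control libraries, and Klhl34 0.755 to 2.03% in space and 4.10 to 5.67% in control libraries. Kbtbd genes together had 23.2 to 26.4 CPM per kb in space libraries and 28.7 to 34.002 CPM per kb in control libraries, with no overlap. No test was made of these sums.

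The shared parts of the ligases were followed in a list of 7 core genes. Cul3, the scaffold of the kelch adaptors, had 216 to 249.9 CPM in space libraries (median 226 CPM) and 199 to 216 CPM in control libraries (median 207 CPM), a 1.105-fold rise (edgeR adjusted p = 0.000666). Cul5, the scaffold of most Asb adaptors, had 111 to 147 CPM in space libraries (median 124 CPM), against 125 to 145 CPM in control libraries (median 133 CPM), and was not called (edgeR adjusted p = 0.0515). Its RING partner Rnf7 was 1.30-fold lower, at 27.5 to 35.6 CPM in space and 38.9 to 44.4 CPM in control libraries (edgeR adjusted p = 1.72e-08). Cul2, which serves other SOCS box adaptors, was 1.29-fold lower with separate ranges (edgeR adjusted p = 2.21e-08). Rbx1, the RING partner of Cul3, was 1.18-fold lower, elongin B, Elob, was 1.096-fold lower (without space replicates 1 to 4, edgeR adjusted p = 0.0577), and elongin C, Eloc, was not called (edgeR adjusted p = 0.602). Of the 7 core genes 1 was higher and 4 lower, or 3 lower without space replicates 1 to 4. Over all genes tested 28.7% were higher and 28.9% lower, or 26.1% lower without space replicates 1 to 4.

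Cullins are switched on by attachment of the modifier Nedd8. Of 14 genes of neddylation and adaptor exchange, 1 was higher and 8 lower, with a median log2 fold change of -0.13, beside 28.7% of all genes higher and 28.9% lower. Without space replicates 1 to 4, Dcun1d2, Cand1 and Arih1 were not called, which left 5 lower, beside 26.1% of all genes. Uba3, the catalytic subunit of the Nedd8-activating enzyme, fell 1.43-fold and had 27.0 to 30.5 CPM in space and 38.4 to 45.1 CPM in control libraries (edgeR adjusted p = 2.93e-12). Ube2m, the Nedd8-conjugating enzyme, was 1.17-fold lower with separate ranges. The higher gene was Arih2, a ligase that works with neddylated Cul5, at 59.2 to 68.6 CPM in space and 44.7 to 53.8 CPM in control libraries (1.29-fold, edgeR adjusted p = 4.39e-08). Of 10 subunits of the COP9 signalosome, which removes Nedd8, 1 was higher and 5 lower, with a median of -0.07. The same shares of all genes, 28.7% higher and 28.9% lower, stand beside these counts. Gps1 and Cops2 were not called without space replicates 1 to 4, which left 3 lower. Cops9, Cops8 and Cops3 were 1.29-fold, 1.16-fold and 1.09-fold lower.

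Adaptors from other families use the same cullins. For the lists below, the shares over all genes tested were 28.7% higher and 28.9% lower. Of 23 other BTB adaptors of Cul3, 3 were higher and 9 lower, with a median log2 fold change of -0.06. Rhobtb1, which carries BTB domains, fell 2.72-fold and had 22.9 to 41.5 CPM in space libraries (median 34.6 CPM) and 73.3 to 105 CPM in control libraries (median 84.1 CPM; edgeR adjusted p = 9.6e-10). Kctd9 was 1.40-fold and Kctd10 1.33-fold lower. Of 17 other SOCS box adaptors, 3 were higher and 7 lower, with a median of -0.31; without space replicates 1 to 4 Socs7 was not called (edgeR adjusted p = 0.186). Spsb4, an adaptor for inducible nitric oxide synthase, fell 3.15-fold and had 1.22 to 2.74 CPM in space and 3.89 to 7.17 CPM in control libraries (edgeR adjusted p = 5.63e-10). Socs6 and Socs5, regulators of cytokine and growth factor receptors, were 1.253-fold and 1.41-fold lower with separate ranges. The 3 higher SOCS box genes were Spsb1 (2.25-fold), Wsb1 (1.64-fold, with separate ranges) and Spsb3 (1.16-fold). With library size alone or upper-quartile factors, 21 genes of the cullin, neddylation, signalosome, adaptor and partner lists together were higher and 32 lower, against 13 higher and 41 lower with TMM factors. The counts were 13 higher and 34 lower without space replicates 1 to 4.

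Genes of reported partners and substrates moved in both directions. Of 25 such genes 4 were higher and 8 lower, and 13 were not called, with a median log2 fold change of -0.01. Over all genes tested 28.7% were higher and 28.9% lower. Without space replicates 1 to 4 Lmod3 was not called and Tnfrsf1b was called lower (edgeR adjusted p = 0.0319). Flnc, the filamin C gene tied to Klhl31, was 1.99-fold lower (edgeR adjusted p = 0.00105), with 860.1 to 4112 CPM in space libraries (median 1593 CPM) and 2693 to 4799 CPM in control libraries (median 3449 CPM). The wide space range overlapped the controls. Irs1, an insulin receptor substrate reported as a target of Klhl9, had 64.6 to 113 CPM in space libraries (median 87.7 CPM) and 129 to 198 CPM in control libraries (median 164 CPM), a 1.90-fold fall (edgeR adjusted p = 4.4e-09). Dapk1, a kinase removed through Klhl20, was 2.25-fold higher, at 11.9 to 26.3 CPM in space and 6.00 to 9.89 CPM in control libraries (edgeR adjusted p = 1.3e-08). Pik3r1, named with Kbtbd2 above, was 2.47-fold higher (edgeR adjusted p = 1.51e-08). Desmin, Des, an intermediate filament protein reported as a target of Asb2, was not called (edgeR adjusted p = 0.364). These values are of RNA and do not measure the proteins that adaptors act on.

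**Figure D5:**
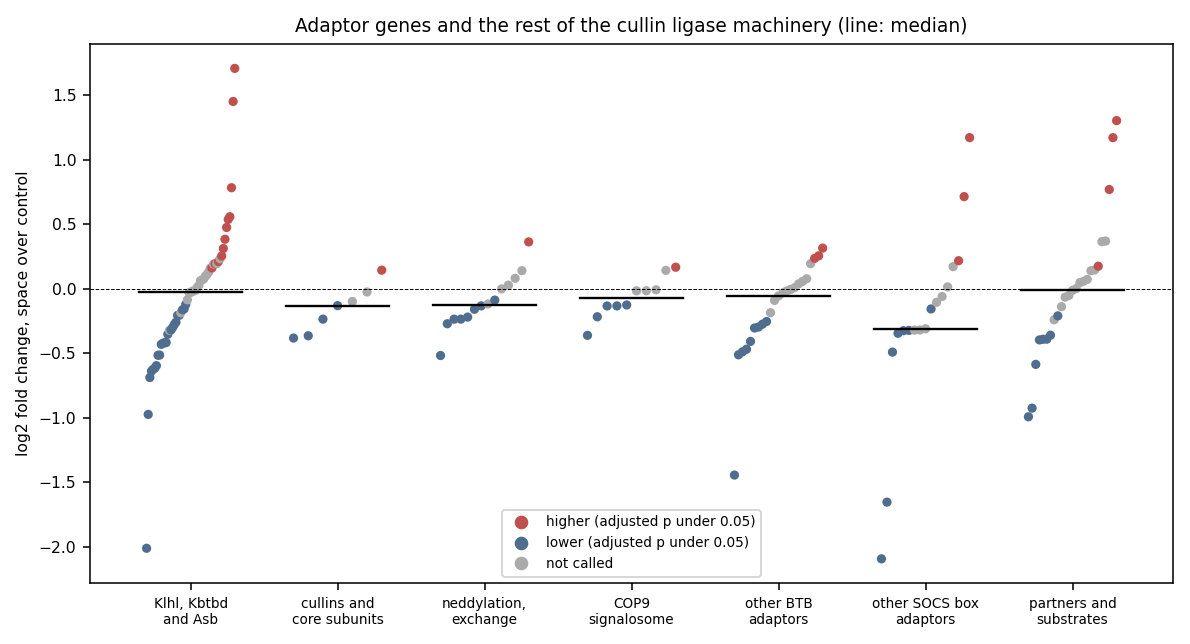
Log2 fold change of space over control for the 55 tested adaptors and for 6 lists of cullin ligase genes, 1 point a gene, coloured by its edgeR call, with the median as a line. The medians lie between -0.31 for other SOCS box adaptors and -0.01 for partners and substrates, and the adaptors span -2.01 to 1.71.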

How the data were processed

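RNA from 20 soleus samples was purified on columns after TriZol homogenisation, and 90 ng went into rRNA-depleted, paired-end libraries, per the labels' protocols. The authors deposited raw counts per Ensembl gene, not normalized. The submitters' processing notes name featureCounts 1.5.1, Subread, edgeR, MultiQC 1.15 and the build GRCm39; they do not state the strand setting, the annotation release or how reads matching several genes were counted. Without a strand setting, reads of overlapping genes on opposite strands cannot be told apart.

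Library codes were matched to the sample descriptions. Symbols, gene classes and exon lengths came from GENCODE M21 (GRCm38), joined on Ensembl identifiers, which named 51948 of 56941 rows (97.6% of counts). Tests ran in edgeR 4.0.16 (R 4.3.3), using filterByExpr (minimum count 10, minimum total 15), TMM scaling, robust quasi-likelihood fits and Benjamini-Hochberg adjustment over all genes tested. The SE beside a log2 fold change was taken from the group means of log2 CPM (prior count 2). The steps were checked on simulated data. Between transcripts of members, blastn found 0 pairs at 95% identity or more over 100 bases.

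The members and lists were chosen with earlier results of these data known. Full values are given for 20 adaptors expressed in striated muscle and the 8 largest rises and falls among called members averaging 1 CPM or more, and for list genes by smallest adjusted p beside fixed core and partner genes. Klhl7, Klhl12, Klhl24, Klhl28, Kbtbd2, Asb7 and other members outside that rule were given values after these were seen. The higher SOCS box genes and the libraries and promoters singled out were chosen in the same way. Alternatives were DESeq2 1.42.0, limma 3.58.1 voom with quality weights, other scalings, filters and thresholds, the sample number as a block, and each library left out. Leaving out space replicates 1 to 4 was added after seeing the data. Same-numbered libraries did not deviate together (correlations of -0.132 to 0.0982 over 10 pairs), and the main test did not pair them. A weak pairing could be missed by this check, since it correlates deviations over all genes tested.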

Additional observations from a re-analysis of the deposited data

Results flagged for a closer look

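Among 110 sets of 10 libraries, 1 for each tested adaptor in each group, 9 held a library set apart from the others by Dixon's criterion; chance flags about 1 in 20 sets. In space replicate 7, Klhl40 stood at 345 CPM, with the next space library at 170.3 CPM, and Asb5 at 217 CPM, with the next at 137 CPM. In space replicate 9, Asb1 stood at 15.4 CPM, next to 14.2 CPM, and Klhl25 at 4.74 CPM, next to 3.54 CPM. The other 5 were control libraries. Asb4 was at 6.08 CPM in control replicate 4, below 8.64 CPM in the next, and Kbtbd7 at 10.7 CPM in control replicate 1, below 13.0 CPM. Kbtbd13 was at 28.2 CPM in control replicate 8, above 22.8 CPM, Klhl24 at 571 CPM in control replicate 5, above 488 CPM, and Klhl41 at 1307 CPM in control replicate 9, above 1104 CPM.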

How the results depend on the processing

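With each library left out in turn, 11 to 13 adaptors were higher and 22 to 25 lower, and over all genes 4631 to 4811 were higher and 4750 to 4868 lower. In the cullin ligase and partner lists 13 to 15 genes were higher and 40 to 43 lower. Against a fold of 1.2 (edgeR glmTreat), 4 adaptors were higher and 12 lower, 2380 genes were higher and 2484 lower in all, and 6 list genes were higher and 16 lower, since that test asks for more than a difference from 0. With library size alone or upper-quartile factors 21 list genes were higher and 32 lower; the cause was not tested. The log2 fold change of Asb2, -0.030, was 0.044 with library size alone, 0.030 with upper-quartile factors and 0.065 without space replicates 1 to 4; with each library left out it ran over -0.075 to 0.032, the highest without space replicate 1. That of Klhl40, 0.19, ran over -0.070 (without space replicate 7) to 0.28. With the replicate number as a block 12 adaptors were higher and 23 lower; 33 of these calls were shared with the unblocked test, Klhl20 and Klhl38 were not called, and Klhl21 and Klhl30 were. None of the 10 space libraries correlated best with the control library of its own number. Klhl30 was also called lower by DESeq2 and by voom with quality weights, and Asb12 higher with library size alone. Precision is limited for adaptors at a few CPM, such as Klhl4, Klhl6 and Kbtbd11.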
